A study of Mus musculus with 160 samples.

Results

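The genes described here are liver genes known to be controlled by growth hormone. They were chosen by name: 27 listed symbols, from the growth hormone receptor Ghr to the lectin gene Clec2h, together with every symbol made of Mup and a number, which added 21 major urinary protein genes. All 48 were found among the 43432 genes of the deposited tables, and 47 had enough counts to be tested in liver. Mup4 was the exception, with 28.9 estimated counts in all, spread over 17 libraries. The study dosed Q175 mice, which carry a knock-in of an expanded Huntington's disease gene, with CHDI-00390576, an inhibitor of the class IIa histone deacetylases. RNA was sequenced from 5 tissues of 32 mice, 160 libraries in all, and the 32 liver libraries are used here. Every mouse was on the C57BL/6J background and 6 months old. The heterozygous Q175 mice received vehicle, 30 mg/kg or 100 mg/kg by mouth, given twice-daily from the age of 4 weeks until 6 months, and wild-type mice received vehicle. Each of the 4 arms held 8 livers, 4 from males and 4 from females, 1 liver per mouse. No wild-type arm received the compound, so genotype and dose were not crossed.

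Growth hormone binds its receptor on hepatocytes, which activates the kinase JAK2 and, through it, the transcription factors STAT5A and STAT5B. STAT5 induces Igf1 and Igfals, whose products circulate together as a growth factor and its stabilising subunit, and Cish and Socs2, which feed back on the receptor. The pituitary of male rodents releases the hormone in pulses and that of females more continuously, and this sets much of the sex difference of the liver through STAT5 and the repressors BCL6 and CUX2.

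The STAT5 dimer prefers sites of the form TTCNNNGAA, a palindrome that reads the same on both strands. This motif was searched from 250 bases before to 50 bases after each annotated start in the RefSeq promoter table (build GRCm38.p6). It occurred in 8.30% of all 32851 windows. Of 38 members with a window, 6 held it: Cish, Bcl6, Keg1, A1bg, Igfals and Prlr, in 8 of 48 windows (16.7%). The clearest cases are shown because these genes are a feedback inhibitor and a repressor in the pathway itself. Cish holds 2 matches that start at bases 0 and 11 from its start (chr9:107296654-107296683, + strand), and Bcl6 holds 3 that start at bases -168, -122 and -88 from 1 of its starts (chr16:23981353-23981461, - strand). Capitals mark the matches.
Cish: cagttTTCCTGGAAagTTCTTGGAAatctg
Bcl6: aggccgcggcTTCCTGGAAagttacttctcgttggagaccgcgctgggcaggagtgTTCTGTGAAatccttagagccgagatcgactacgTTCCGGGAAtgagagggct
A match describes these letters, and is not evidence of binding.

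The Mup and Serpina1 genes are multigene families, and many of their transcripts share long stretches. A 116-base promoter stretch of the 5 Serpina1 genes (alpha-1 antitrypsins, which inhibit serine proteases) is shown because these genes differ in sex bias and in response. This stretch lies before each annotated start, so it does not measure how much the transcripts share. It lies on the minus strand of GRCm38.p6 at chr12:103863625-103863740 (Serpina1a), chr12:103738200-103738315 (Serpina1b), chr12:103904962-103905077 (Serpina1c), chr12:103773634-103773749 (Serpina1d) and chr12:103956960-103957075 (Serpina1e). Capitals mark bases that differ from Serpina1b, and the lowest identity was 94.0%.
Serpina1a: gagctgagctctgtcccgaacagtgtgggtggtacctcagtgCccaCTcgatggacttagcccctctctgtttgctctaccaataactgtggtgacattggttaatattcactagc
Serpina1b: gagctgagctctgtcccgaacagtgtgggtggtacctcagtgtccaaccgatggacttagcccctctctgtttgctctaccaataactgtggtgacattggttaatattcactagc
Serpina1c: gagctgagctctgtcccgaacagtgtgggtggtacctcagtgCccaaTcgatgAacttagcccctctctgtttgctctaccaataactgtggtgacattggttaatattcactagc
Serpina1d: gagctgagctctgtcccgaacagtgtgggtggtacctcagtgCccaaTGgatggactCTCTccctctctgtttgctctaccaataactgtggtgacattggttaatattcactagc
Serpina1e: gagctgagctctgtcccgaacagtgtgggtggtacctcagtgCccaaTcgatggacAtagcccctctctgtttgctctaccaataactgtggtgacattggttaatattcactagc

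A 62-base promoter stretch of the Mup genes is shown for 4 of them, since Mup3 and Mup21 stand apart from the rest in sequence. Mup9, Mup11, Mup14, Mup15, Mup17 and Mup19 had the same letters. The stretches lie on the minus strand at chr4:60662458-60662519 (Mup11), chr4:60582247-60582308 (Mup10), chr4:62087355-62087416 (Mup3) and chr4:62150873-62150934 (Mup21), and capitals mark bases that differ from Mup11.
Mup11: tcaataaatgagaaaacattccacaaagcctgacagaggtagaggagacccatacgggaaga
Mup10: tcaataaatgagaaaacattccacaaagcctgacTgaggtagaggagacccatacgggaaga
Mup3: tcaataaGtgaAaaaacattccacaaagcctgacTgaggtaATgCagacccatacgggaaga
Mup21: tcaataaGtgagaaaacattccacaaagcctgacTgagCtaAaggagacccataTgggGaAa
In the GENCODE vM21 transcripts, the median Mup gene shared 78.2% of its 50-base words with another Mup gene, and Mup15 and Mup19 shared 100%. Only 6 of the 21 shared under 20%: Mup6 (1.68%), Mup20 (4.66%), Mup4 (12.3%), Mup3 (12.6%), Mup5 (16.1%) and Mup21 (19.1%). The Serpina1 genes shared 28.2% to 73.3%. Single rows of either family are therefore uncertain, and the sum of each family is given beside them.

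Liver libraries held 33.5 M to 41.4 M estimated counts. Levels are given as CPM, counts scaled to a common library size after TMM, unless FPKM is named. The sex labels matched the X-inactivation and Y-linked transcripts in all 32 livers, and every pair of livers of the same arm and sex differed by more than counting noise. In 4 libraries, markers of another tissue were raised: skeletal muscle markers summed to 256 CPM in WT female 4 (with 16.8 CPM of adipocyte and 8.07 CPM of heart markers) and to 6.82 CPM in Q175 vehicle female 3, and heart markers to 19.7 CPM in 30 mg/kg female 1 and 14.4 CPM in Q175 vehicle male 1. The 7 hepatocyte markers summed to 86453 ± 6439 CPM at 100 mg/kg, against 106946 ± 17112 CPM in Q175 vehicle livers (SD, n = 8 each), with ranges of 78410 to 96486 CPM and 76041 to 130620 CPM that overlap. The part of this difference in the results below was not tested. In whole tissue, fewer cells of a type and less RNA per cell cannot be told apart.

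The members are mostly liver transcripts. In the 40 WT vehicle libraries, 40 of the 48 had their highest mean FPKM in liver, and 36 had over 90% of the sum of their 5 tissue means there. The exceptions were signalling genes and a few shared ones. Cish (21.8 FPKM), Socs2 (10.9 FPKM) and Stat5a (5.35 FPKM) were highest in heart, Stat5b (30.2 FPKM) and Bcl6 (15.2 FPKM) in tibialis muscle, and Cux2 (9.79 FPKM) and Susd4 (30.1 FPKM) in cortex, and Mup5 was listed at 0.324 FPKM in striatum and 0.212 FPKM in liver. Within WT liver, on the FPKM scale, the highest means were those of Serpina1c (4999 FPKM), Mup10 (4677 FPKM), Serpina1b (4636 FPKM) and Mup20 (4022 FPKM). Ghr (166 FPKM) and Igf1 (266 FPKM) were far below these secreted proteins, and Cux2 (1.75 FPKM) and Cish (2.72 FPKM) lower still.

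More of these genes differed by sex than between any pair of arms. Of the 47 tested, 42 differed between males and females averaged over the 4 arms, 33 higher and 9 lower in males (edgeR quasi-likelihood test, Benjamini-Hochberg adjusted p below 0.05). Over all genes tested, 33.3% were called in this comparison, 16.6% higher and 16.7% lower in males. The median log2 fold change (males over females) was 1.57 over the members and -0.01 over all genes. Within single arms of 4 males and 4 females, 23 members were called at 100 mg/kg (2.89% of all genes), 21 at 30 mg/kg (6.94%), 28 in Q175 vehicle (8.34%) and 23 in WT vehicle livers (8.77%).

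Of the 48 members, 10 had ranges that did not overlap between the 16 males and the 16 females. How many of all genes were apart in this way was not counted. Hsd3b5, a steroid-reducing enzyme of the 3-beta-hydroxysteroid dehydrogenase family, had 1.40 to 174 CPM in males (median 56.5) and 0.0276 to 0.253 CPM in females (median 0.148). Its log2 fold change was 8.56 ± 0.66 (SE; adjusted p = 1.48e-10). Mup20, which encodes the male pheromone darcin, had 2416 to 11820 CPM in males and 56.9 to 319 CPM in females, a log2 fold change of 6.02 ± 0.23 (adjusted p = 1.79e-17). The others above all females were the organic anion transporter Slco1a1 (log2 6.12), Serpina1e (5.65), the fatty acid elongase Elovl3 (5.55), Mup21 (4.11), the complement regulator Susd4 (3.72) and the oxysterol hydroxylase Cyp7b1 (2.22).

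In the female direction, Hao2, a peroxisomal hydroxyacid oxidase, had 0.0215 to 2.43 CPM in males and 5.24 to 79.1 CPM in females (log2 -6.29 ± 0.34, adjusted p = 8.55e-14). The prolactin receptor Prlr had 56.2 to 195 CPM in males and 239 to 390 CPM in females (log2 -1.67 ± 0.13). These are the 2 members with every female above every male. A1bg, a plasma glycoprotein gene, had a wider gap on average (log2 -8.17 ± 0.71), but its highest male, at 5.30 CPM, lay above its lowest female, at 4.70 CPM. The repressor Cux2 was also lower in males (log2 -4.48 ± 0.49), and its counterpart Bcl6 was higher (log2 1.57 ± 0.32). Both feedback inhibitors were lower in males, Socs2 by a log2 fold change of -1.19 ± 0.23 and Cish by -1.001 ± 0.31. Ghr differed little (log2 0.23 ± 0.07, adjusted p = 0.0190), and this call was lost without WT male 3 and with limma on log2(FPKM + 0.1) (log2 0.09, adjusted p = 0.271). For Igf1 the value was -0.01 ± 0.07 (adjusted p = 0.901). Serpina1b and Serpina1d were at -0.04 and 0.02, while Serpina1c was at 0.94 ± 0.09.

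**Figure D1:**
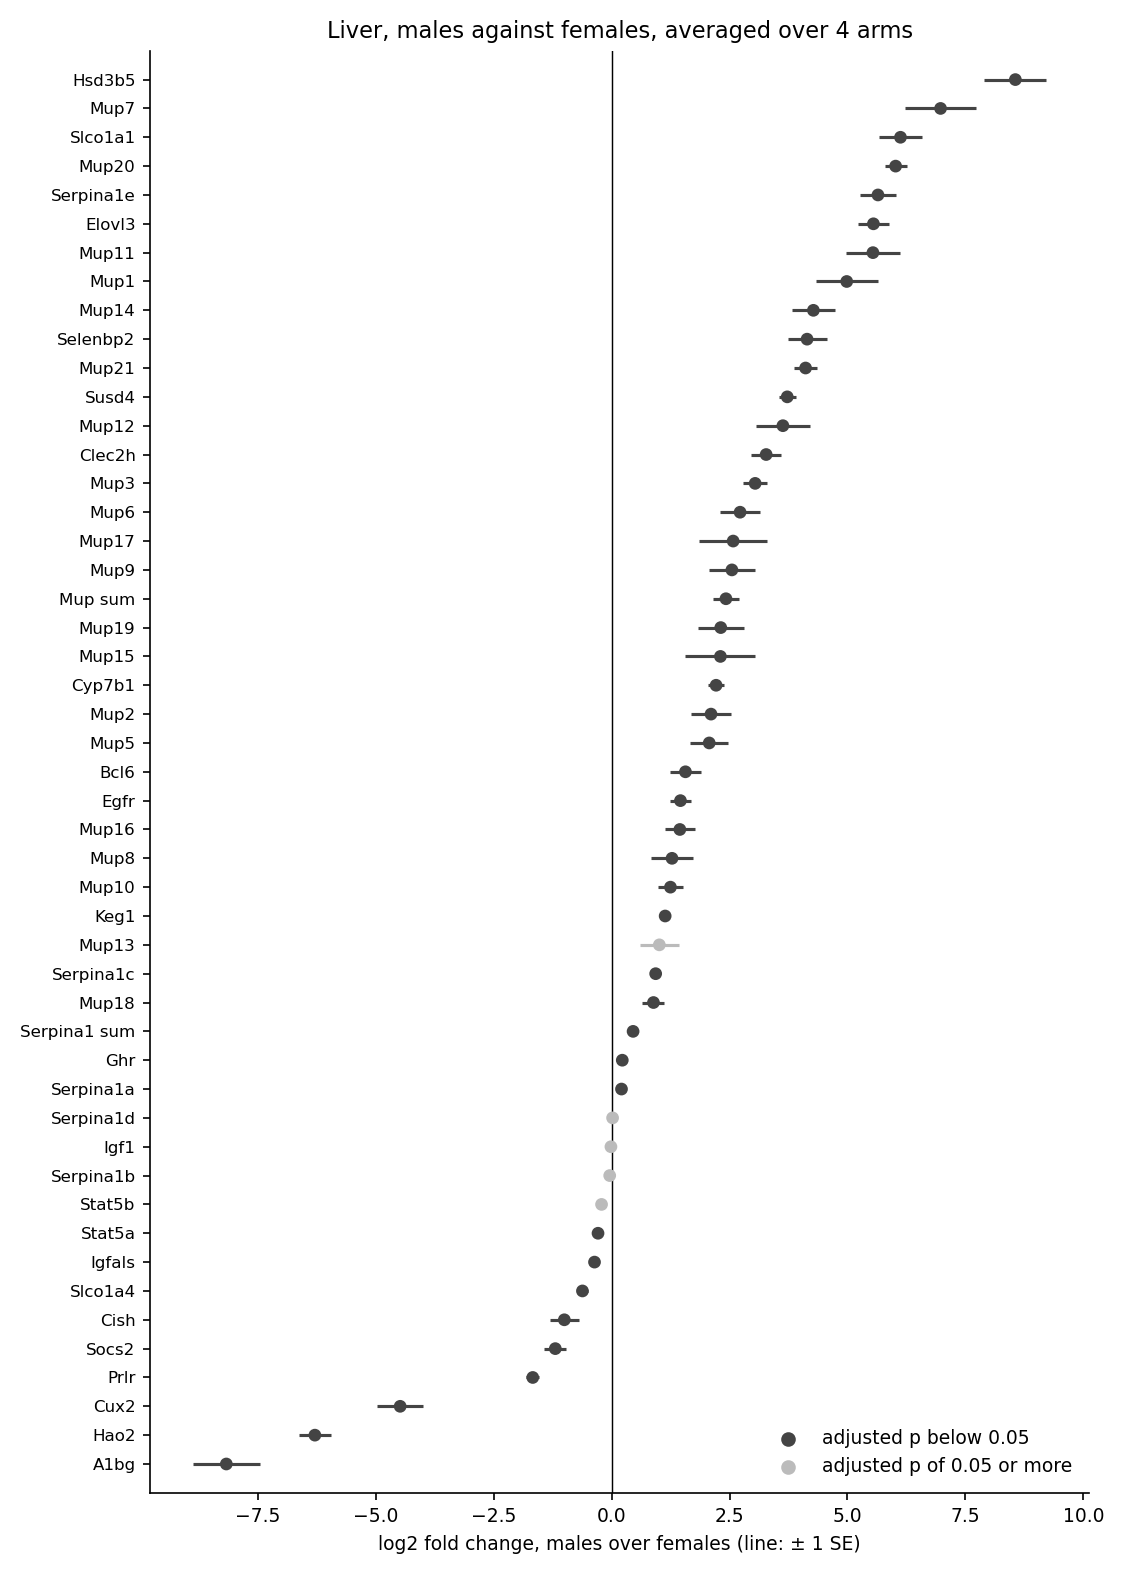
Log2 fold change of males over females in liver for each member tested and both family sums (x axis; line, 1 SE; dark, adjusted p below 0.05; averaged over 4 arms). The values run from 8.56 for Hsd3b5 down to -8.17 for A1bg, with Igf1, Serpina1b and Serpina1d near 0.

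At 100 mg/kg, 8 members differed from Q175 vehicle livers. The 7 that fell were Clec2h, Serpina1e, Igf1, Susd4, Egfr, Serpina1c and Serpina1a. Hao2 rose. Over all genes, 6.76% were called in this comparison, 4.25% higher and 2.51% lower, so 7 of 47 lower compares with 2.51% and 1 of 47 higher with 4.25%. At an unadjusted p below 0.05 there were 17 members of 47, against 3239 of all 15539 genes. The log2 fold change was negative for 37 of the 47, with a median of -0.30, against -0.01 over all genes. Of the 48 members, 21 are Mup and 5 are Serpina1 genes, whose rows share sequence and are not independent. Counts and medians over members, here and elsewhere, include these related rows. All 6 that fell other than Igf1 are also higher in males than in females in these livers (Serpina1a by a log2 of only 0.21), and Hao2 is higher in females. Most of the list is male-biased, with 33 of the 47 called higher in males, and a link of sex bias to the change was not tested. That sex direction was not uniform among members without a call, since the female-biased A1bg was at -2.28 ± 1.01 (adjusted p = 0.183) and the male-biased Elovl3 at 0.85 ± 0.48 (adjusted p = 0.325).

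**Figure D2:**
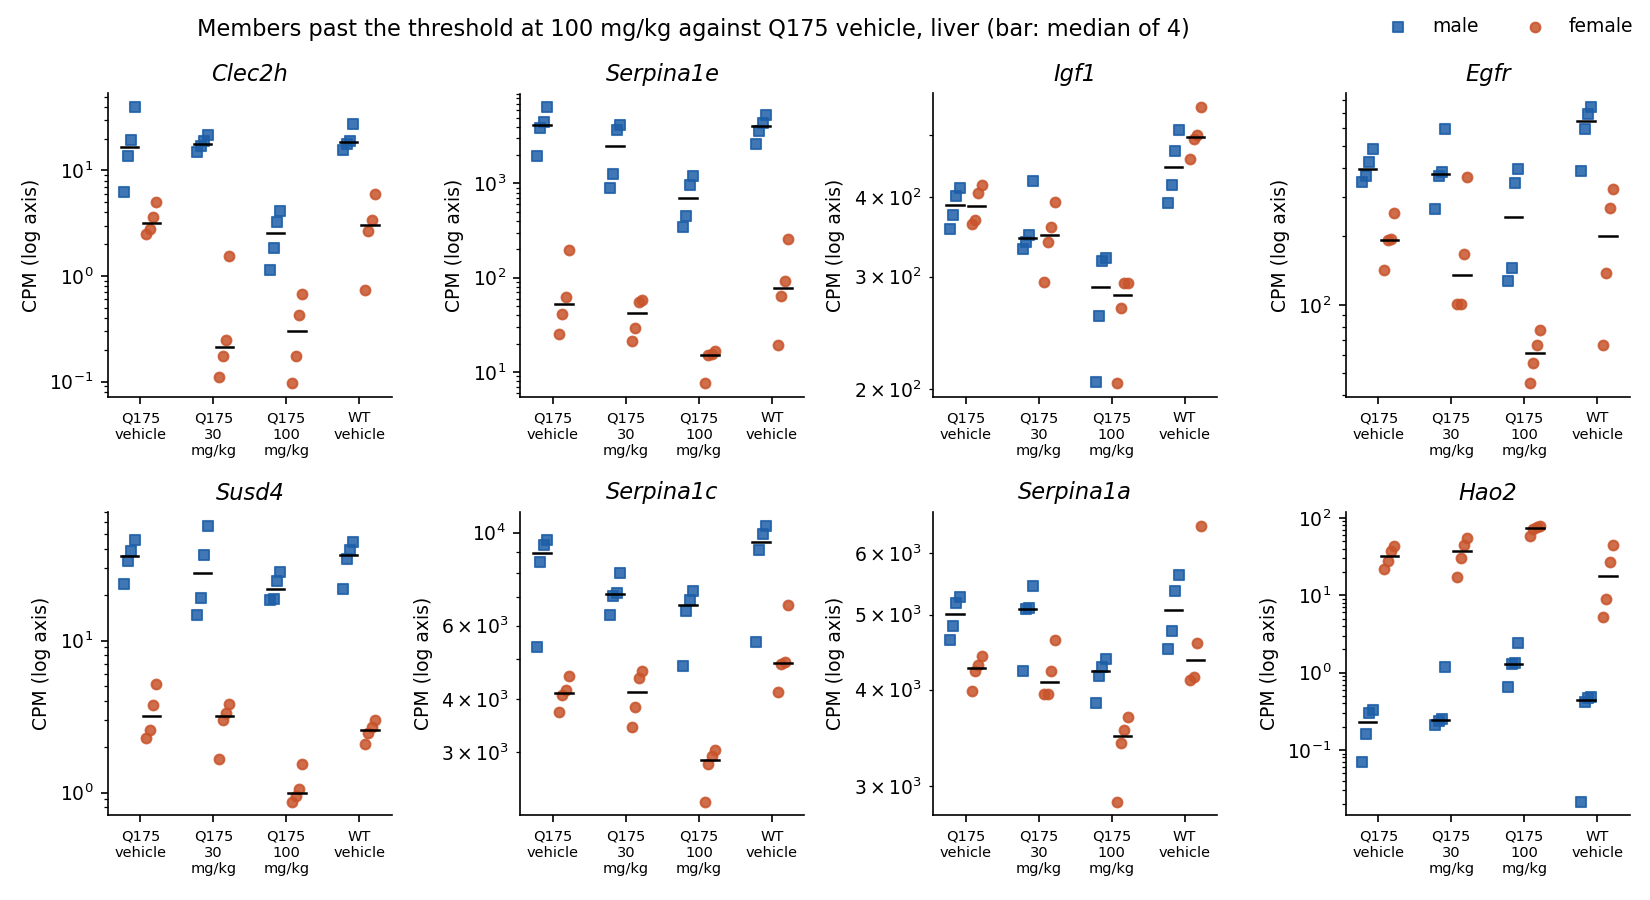
CPM (log axis) of the 8 genes called at 100 mg/kg against Q175 vehicle, in every liver by arm (squares, males; circles, females; bar, median of 4). Igf1 at 100 mg/kg lies between 204 and 321 CPM, under every Q175 vehicle liver, and Hao2 is the only panel in which the 100 mg/kg livers are the highest.

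Igf1, the hormone that carries much of the growth-promoting action, was the 1 member of 48 without overlap over both sexes. Such overlap was not counted over all genes. At 100 mg/kg Igf1 had 321, 317, 260 and 205 CPM in males and 294, 268, 204 and 293 CPM in females. In Q175 vehicle livers it had 402, 375, 413 and 357 CPM in males and 363, 368, 418 and 406 CPM in females. All 8 treated livers were under the lowest vehicle liver, and the mean was 270 ± 45.5 CPM, against 388 ± 24.4 CPM (SD, n = 8 each). The log2 fold change was -0.52 ± 0.09 (SE; edgeR adjusted p = 0.000595). Igfals, the acid-labile subunit that binds IGF1 in plasma, averaged 54.4 ± 7.83 CPM at 100 mg/kg and 63.4 ± 12.6 CPM in Q175 vehicle livers (log2 -0.20 ± 0.17, adjusted p = 0.515).

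Receptor, transducers and feedback genes did not pass the test at 100 mg/kg. Ghr averaged 345 ± 55.5 CPM, against 402 ± 40.1 CPM with vehicle (log2 -0.24 ± 0.10, adjusted p = 0.183), and in females its 4 treated livers (270 to 325 CPM) lay under the 4 vehicle livers (356 to 427 CPM). Stat5a averaged 17.9 ± 4.32 CPM, against 13.0 ± 2.98 CPM (log2 0.46 ± 0.17, adjusted p = 0.0911). It was called in the edgeR alternative with the cells of arm and sex averaged (log2 0.47, adjusted p = 0.0432). Stat5b was at -0.23 ± 0.13. The inhibitors showed wide spreads: Cish was at -0.997 ± 0.46 (adjusted p = 0.206), and Socs2 at -0.35 ± 0.33 (adjusted p = 0.581). Socs2 in the treated males had 8.09, 8.60, 1.87 and 1.09 CPM, against 9.03, 5.58, 4.44 and 4.51 CPM in Q175 vehicle males, so the lowest values of all 32 livers were in male 3 and male 4 of the treated arm, which were also the lowest treated males for Egfr, Serpina1e and Igf1. The repressor genes Bcl6 (-0.81 ± 0.44) and Cux2 (-0.31 ± 0.67) and the receptor Prlr (-0.02 ± 0.20) had no call.

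Clec2h, which encodes a C-type lectin-like receptor, had the largest fitted change. At 100 mg/kg it had 3.22, 4.12, 1.84 and 1.15 CPM in males and 0.175, 0.423, 0.672 and 0.0969 CPM in females. In Q175 vehicle livers it had 39.6, 6.21, 13.8 and 19.3 CPM in males and 3.59, 2.80, 5.04 and 2.49 CPM in females. The groups were apart within each sex, with ratios of the vehicle to the treated mean of 7.64 in males and 10.2 in females. The log2 fold change was -3.18 ± 0.53 (adjusted p = 0.000436).

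Egfr, the epidermal growth factor receptor, fell by 1.16 on the log2 scale (SE 0.31, adjusted p = 0.0194). Treated females had 66.6, 55.5, 45.2 and 77.7 CPM, against 142, 193, 195 and 253 CPM in vehicle females. Treated males had 396, 343, 145 and 127 CPM, against 485, 368, 347 and 427 CPM in vehicle males, so the females were apart and the males overlapped. The call was lost without the 4 libraries that hold transcripts of another tissue (adjusted p = 0.0516). Susd4 fell by 1.04 on the log2 scale (SE 0.25, adjusted p = 0.0109), with 0.872 to 1.54 CPM in treated females, all under the vehicle females at 2.30 to 5.18 CPM, and with overlapping males at 18.5 to 28.4 CPM and 23.4 to 46.2 CPM.

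Hao2 was the member that rose. At 100 mg/kg it had 72.1, 76.9, 79.1 and 58.4 CPM in females and 1.31, 0.658, 1.29 and 2.43 CPM in males. In Q175 vehicle livers it had 22.04, 37.8, 42.7 and 27.4 CPM in females and 0.0692, 0.300, 0.331 and 0.163 CPM in males. The groups were apart in both sexes, by ratios of means of 2.20 in females and 6.60 in males. The log2 fold change was 1.54 ± 0.41 (adjusted p = 0.0205).

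Several strongly sex-biased members had negative values without a call. Selenbp2, a selenium-binding protein gene, was at -1.84 ± 0.59 (adjusted p = 0.0558), with 33.6, 53.9, 9.16 and 6.53 CPM in treated males, all under the vehicle males at 123, 60.5, 74.0 and 548 CPM. It was called by DESeq2 (adjusted p = 0.0173), by limma on log2(FPKM + 0.1) and with the cells of arm and sex averaged. Hsd3b5 was at -1.67 ± 0.77 (adjusted p = 0.212) and Slco1a1 at -1.24 ± 0.53 (adjusted p = 0.165), with overlapping males for both. Cyp7b1 was at 0.01 ± 0.25 (adjusted p = 0.993). Keg1, which belongs to the glycine N-acyltransferase-like genes, was at -0.30 ± 0.16, and the transporter Slco1a4 at -0.30 ± 0.20.

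The 5 Serpina1 genes did not share 1 value at 100 mg/kg. Serpina1e had 961, 1200, 448 and 349 CPM in treated males and 16.8, 7.62, 15.6 and 14.98 CPM in treated females. With vehicle it had 3837, 4502, 1977 and 6428 CPM in males and 25.1, 62.5, 41.6 and 194 CPM in females. The groups were apart within each sex, and the log2 fold change was -2.53 ± 0.46 (adjusted p = 0.000905). Serpina1c (-0.47 ± 0.13, adjusted p = 0.0311) and Serpina1a (-0.29 ± 0.09, adjusted p = 0.0369) also fell. Their calls were less stable: leaving out 1 library in turn removed the call of Serpina1c in 6 of 32 cases and that of Serpina1a in 7 of 32. Serpina1a also lost its call with no filter on low counts, with the replicate block and without the libraries with transcripts of another tissue, and Serpina1c in none of 11 settings. Serpina1b (0.00 ± 0.10) and Serpina1d (-0.06 ± 0.10), which were alike in both sexes, had adjusted p of 0.999 and 0.779. The family sum averaged 18176 ± 3224 CPM at 100 mg/kg, against 22515 ± 5456 CPM with vehicle, a log2 fold change of -0.31 ± 0.09 (adjusted p = 0.0395) that lost its call in 28 of 32 such cases. The family held 1.83% to 2.96% of all counts in males and 1.502% to 2.47% in females.

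The Mup family, lipocalins that are secreted into urine and carry pheromones, varied widely between livers. Its sum at 100 mg/kg was 32340, 29312, 29715 and 19078 CPM in males, against 13043, 25760, 38610 and 78185 CPM in Q175 vehicle males. In females it was 3900, 2325, 3922 and 5412 CPM, against 4176, 8503, 5449 and 1650 CPM. The treated males lay within the vehicle range, and the log2 fold change of the sum was -0.45 ± 0.39 (adjusted p = 0.547). No Mup row was called at 100 mg/kg. The closest was Mup3 (-1.07 ± 0.36, adjusted p = 0.0672), whose treated females, at 130 to 217 CPM, were under the vehicle females at 353 to 727 CPM. It was called by DESeq2 (adjusted p = 0.0350) and in 3 edgeR alternatives (library totals only, cells of arm and sex averaged, and arms of the contrast only). Between sexes the family sum was at 2.42 ± 0.28 (adjusted p = 2.53e-07), and it held 0.834% to 7.39% of all counts in males and 0.173% to 1.28% in females.

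The spread between male livers differed from one Mup row to another. Mup15 ranged 1281-fold over the 16 males and Mup7 436-fold, with the highest value of both in Q175 vehicle male 4 (2040 CPM of Mup15 and 15377 CPM of Mup7). Mup18 ranged 3.97-fold and Mup20 4.89-fold. Mup20 made up 10.03% to 63.1% of the Mup sum in males (median 19.8%), and 0.745% to 19.5% in females (median 1.38%). The highest shares were in Q175 vehicle male 1 (63.1%) and WT male 2 (56.1%), where the other Mup rows summed to only 4817 and 9240 CPM. The first of these also held heart transcripts, and the second is 1 of 4 libraries whose column carries a lane and index, and the part of either in these values was not tested. At 100 mg/kg, Mup20 had 4856, 5794, 6258 and 2416 CPM in males, all under the vehicle males at 8226, 6899, 7690 and 7844 CPM, while over both sexes it was at -0.29 ± 0.27 (adjusted p = 0.590).

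**Figure D3:**
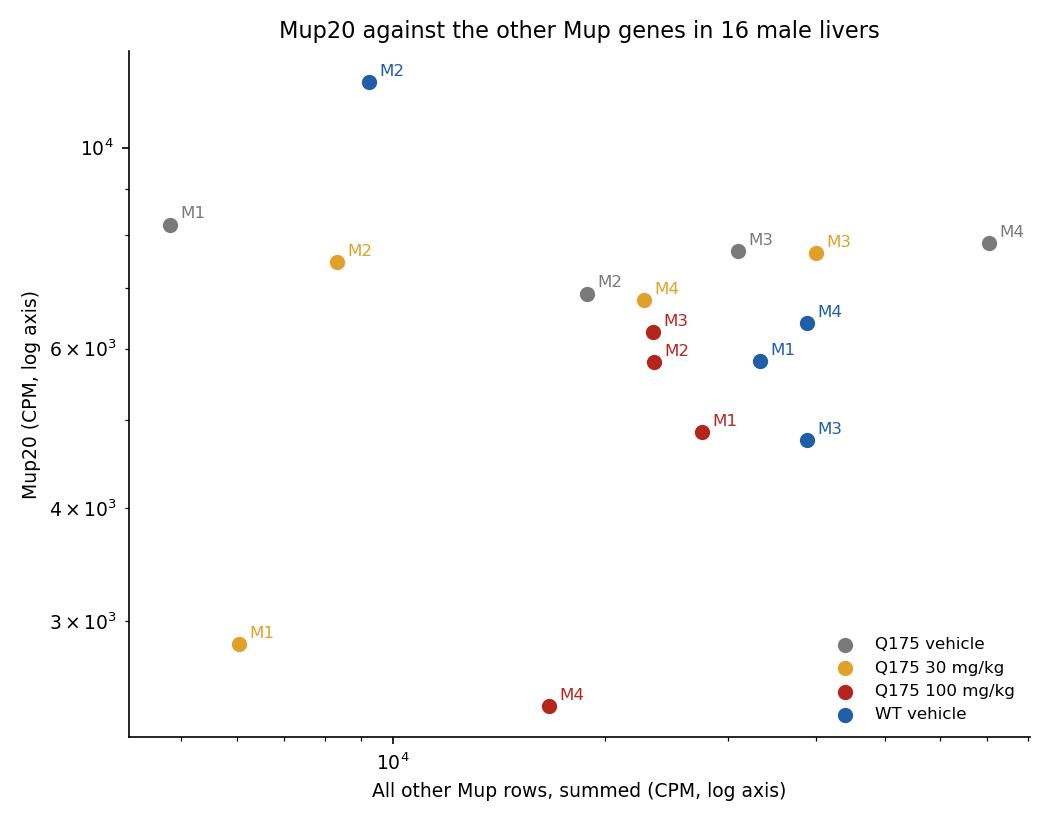
Mup20 (y axis, CPM, log) against the sum of all other Mup rows (x axis, CPM, log) in the 16 male livers, coloured by arm and labelled by replicate. WT male 2 has the highest Mup20 (11820 CPM) with a low sum of the others, and 30 mg/kg male 1 and 100 mg/kg male 4 have the lowest Mup20 (2829 and 2416 CPM).

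At 30 mg/kg no member was called against Q175 vehicle livers by edgeR, as no gene of all 15539 tested was (0%). Clec2h alone had an unadjusted p below 0.05 (log2 -1.02 ± 0.47, adjusted p = 0.9999), where 593 of all 15539 genes had such a p. DESeq2 also called no member. Clec2h in males stayed within the vehicle range, with 14.9, 21.5, 19.0 and 16.9 CPM, whereas females had 1.55, 0.250, 0.174 and 0.112 CPM, all under the vehicle females at 2.49 to 5.04 CPM. Within females the value was -2.69 ± 0.67 (adjusted p = 0.207, against 0.0322% of all genes called, 0.0193% higher and 0.0129% lower). Igf1 averaged 388 ± 24.4 CPM with vehicle, 354 ± 39.4 CPM at 30 mg/kg and 270 ± 45.5 CPM at 100 mg/kg in Q175 livers. Between the 2 doses, 100 mg/kg was lower for Igf1 (log2 -0.39 ± 0.09, adjusted p = 0.0353) and Clec2h (-2.16 ± 0.52, adjusted p = 0.0463), the 2 members called of 47, where 0.650% of all genes were called. Neither call held under every alternative. Igf1 kept its call in 8 of 12 settings and in 26 of 32 cases with 1 library left out, and Clec2h in 5 of 12 and 10 of 32.

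Q175 vehicle livers did not differ from WT vehicle livers in any member by edgeR, and 0.00644% of all genes were called. The 3 members with an unadjusted p below 0.05 were Igf1 (log2 -0.29 ± 0.09, adjusted p = 0.680), Socs2 (-0.94 ± 0.33, adjusted p = 0.722) and Igfals (-0.38 ± 0.17, adjusted p = 0.735), and DESeq2 called none. These 3 of 47 compare with 1028 of all 15539 genes at that unadjusted p. Igf1 in Q175 vehicle females (363 to 418 CPM) lay under WT females (458 to 553 CPM), and the males overlapped. Against the same WT livers, 12 members were called at 100 mg/kg, 1 higher and 11 lower (7.11% of all genes, 4.36% higher and 2.75% lower), with a median log2 fold change of -0.48. The WT values stand beside those against Q175 vehicle, which share the treated livers. Igf1 was at -0.81 ± 0.09 (adjusted p = 9.33e-07), Serpina1e at -2.72 ± 0.46, Clec2h at -3.13 ± 0.53 and Hao2 at 1.91 ± 0.43. Socs2 (-1.29 ± 0.33, adjusted p = 0.0157), Igfals (-0.59 ± 0.17, adjusted p = 0.0271), Mup3 (-1.35 ± 0.36) and Selenbp2 (-2.05 ± 0.60) were called against WT livers, and each of these 4 lost its call in some alternative. Socs2 lost it with the arms of the contrast only (adjusted p = 0.0528), Mup3 with the replicate block (0.0503), Igfals in 3 of 32 cases with 1 library left out, and Selenbp2 in 3 of 12 settings and 6 of 32 such cases. At 30 mg/kg against WT livers no member was called (0.0579% of all genes), and DESeq2 called Igf1 (log2 -0.42). There, 7 of 47 members had an unadjusted p below 0.05, against 1213 of all 15539 genes.

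**Figure D4:**
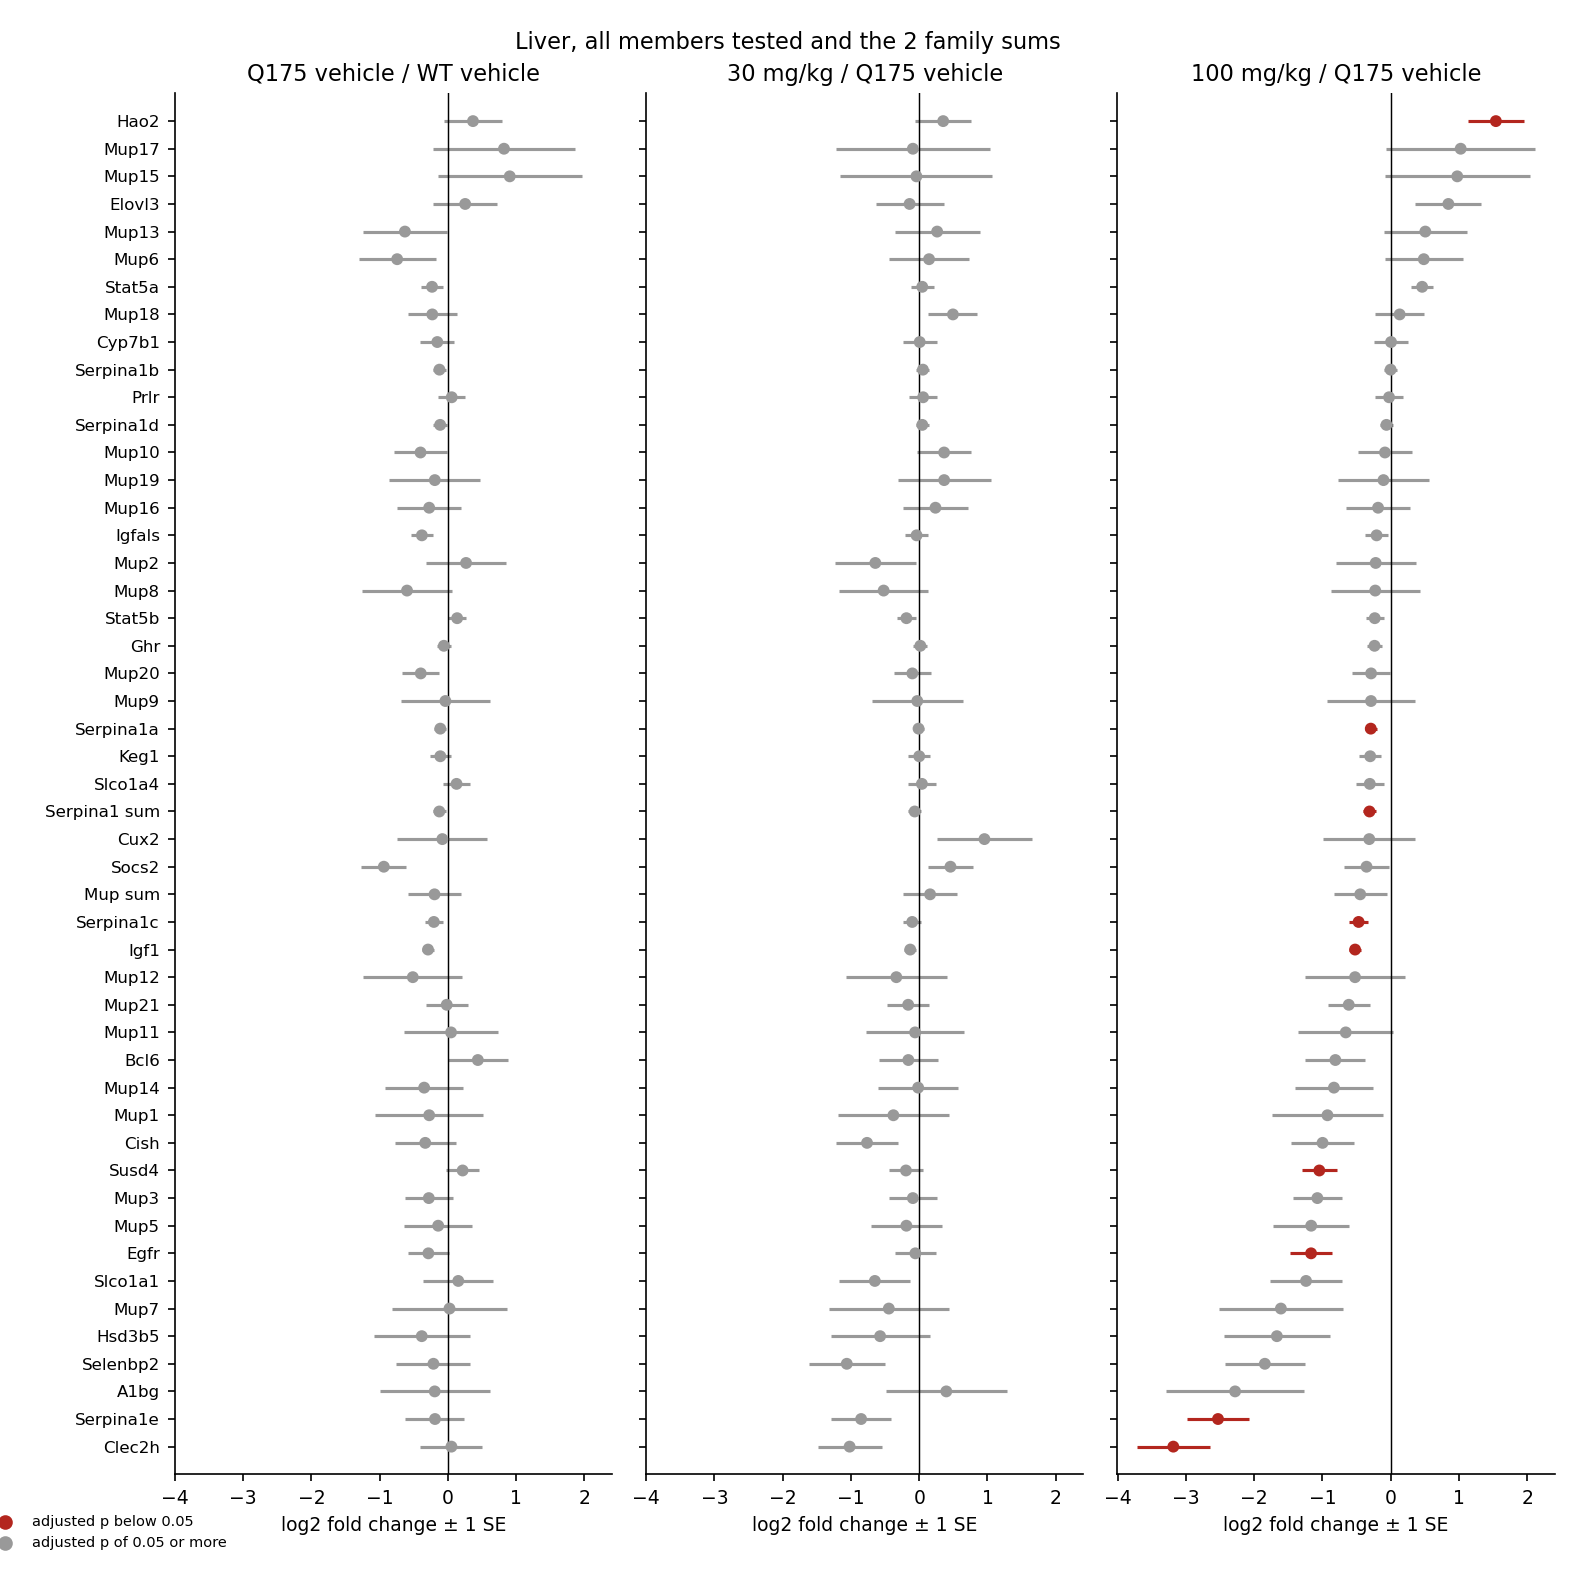
Log2 fold change with 1 SE (x axis) of every member tested and both family sums in 3 comparisons of liver arms, sorted by the value at 100 mg/kg against Q175 vehicle (red, adjusted p below 0.05). Red points occur in the 100 mg/kg panel, from -3.18 for Clec2h to 1.54 for Hao2, and not in the other two.

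Fitted within females, 100 mg/kg against Q175 vehicle called 6 members (3.33% of all genes, 2.12% higher and 1.2% lower). Clec2h (-3.31 ± 0.71), Serpina1e (-2.56 ± 0.68), Egfr (-1.68 ± 0.43), Susd4 (-1.64 ± 0.38) and Igf1 (-0.55 ± 0.13) fell. Elovl3 rose by 2.23 ± 0.59 (adjusted p = 0.0355), with 19.5, 7.80, 9.18 and 14.1 CPM in treated females, all above the vehicle females at 3.89, 3.31, 2.46 and 1.11 CPM. The 30 mg/kg females were also all above these vehicle females for Elovl3, without a call. The call of Elovl3 was lost in 3 of 10 settings, the replicate block among them, and in 7 of 32 cases with 1 library left out, and that of Serpina1e in 4 of 9 settings and 5 of 32 such cases (adjusted p up to 0.216, without Q175 vehicle female 4). None of the 6 calls within females was kept in every setting and every such case. Within males, Clec2h fell (-2.93 ± 0.59, adjusted p = 0.0209), the 1 member called where 0.290% of all genes were, and 0.0772% lower. That call was lost with no filter on low counts and in 5 of 32 cases with 1 library left out. Serpina1e (-2.50 ± 0.67) and Igf1 (-0.49 ± 0.13) had male values with adjusted p of 0.119 and 0.118. Hao2 was at 2.75 ± 0.82 in males (adjusted p = 0.166) and 1.14 ± 0.49 in females (adjusted p = 0.205). Elovl3 in males was at 481, 316, 306 and 347 CPM with treatment, within the vehicle males at 51.0 to 545 CPM. In males, 100 mg/kg against 30 mg/kg called Clec2h (-2.80 ± 0.59) and Stat5a (0.88 ± 0.20) of 47, where 0.431% of all genes were called (0.322% higher and 0.109% lower). Stat5a kept its call in 5 of 10 settings and in 12 of 32 cases with 1 library left out, and Clec2h in 8 of 10 and 20 of 32. Within females the same contrast called no member (0.315% of all genes, 0.0708% higher and 0.245% lower).

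No difference between the sexes in these contrasts was called. The interaction of sex with arm gave 0 members past the threshold by edgeR (0% of all genes over the 3 contrasts jointly). An unadjusted p below 0.05 was found for 6 of 47 members, against 1550 of all 15539 genes. For Elovl3, the male minus female difference of log2 fold changes at 100 mg/kg was -2.31 ± 0.80 (adjusted p = 0.956), and at 30 mg/kg -2.94 ± 0.81 (adjusted p = 0.0997). For Igf1 at 100 mg/kg it was 0.07 ± 0.18 (adjusted p = 0.982).

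Livers of 1 sex also varied beside the arms, and 12 pairs of members were correlated in each sex over the 16 livers after removing arm means (24 relations; log2(CPM + 0.1); 100000 permutations, whose smallest p is 1e-05). The Mup sum and Cyp7b1 varied together in males (Pearson r = 0.94, adjusted permutation p = 6e-05; Spearman rho = 0.87, adjusted p = 0.00024) and in females (r = 0.73, adjusted permutation p = 0.00332; rho = 0.74, adjusted p = 0.0064). Without the 2 livers farthest from the median Mup sum, r was 0.89 in males and 0.72 in females. The sign was positive in each of the 4 arms. In males, Hsd3b5 followed Cyp7b1 (r = 0.85, rho = 0.89, adjusted permutation p = 6e-05 and 0.00024; 0.73 without the 2 farthest livers) and the Mup sum (r = 0.86, rho = 0.82, adjusted permutation p = 6e-05 and 0.00112; 0.74).

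Igf1 followed the feedback gene Socs2 in males (r = 0.89, adjusted permutation p = 6e-05; rho = 0.76, adjusted p = 0.0049; 0.81 without the 2 farthest livers), and in females r was -0.13 (rho = -0.15, adjusted permutation p = 0.729 and 0.668). Without removing arm means, r in females was 0.54, and within arms it ran from -0.72 to 0.69. The difference between the sexes was not tested. Cish and the repressor Bcl6 ran in opposite directions in females (r = -0.61, adjusted permutation p = 0.0295; rho = -0.69, adjusted p = 0.0141; -0.74 without the 2 farthest), with a negative sign in all 4 arms. In males r was -0.59 (adjusted permutation p = 0.0297), with rho = -0.43 (adjusted p = 0.176). This r went to -0.37 without the 2 farthest livers, and the arms did not share 1 sign. How far it depends on those 2 livers was not tested. Cux2 with A1bg in males (r = 0.83, rho = 0.64, adjusted permutation p = 0.0023 and 0.0259) went to 0.52 in the same way, with a positive sign in all 4 arms. The male with the highest Cux2 and A1bg was 30 mg/kg male 1, at 8.19 and 5.30 CPM, and it also had the highest Prlr, at 195 CPM. Of the 24 relations, 12 passed the threshold by Pearson's r.

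**Figure D5:**
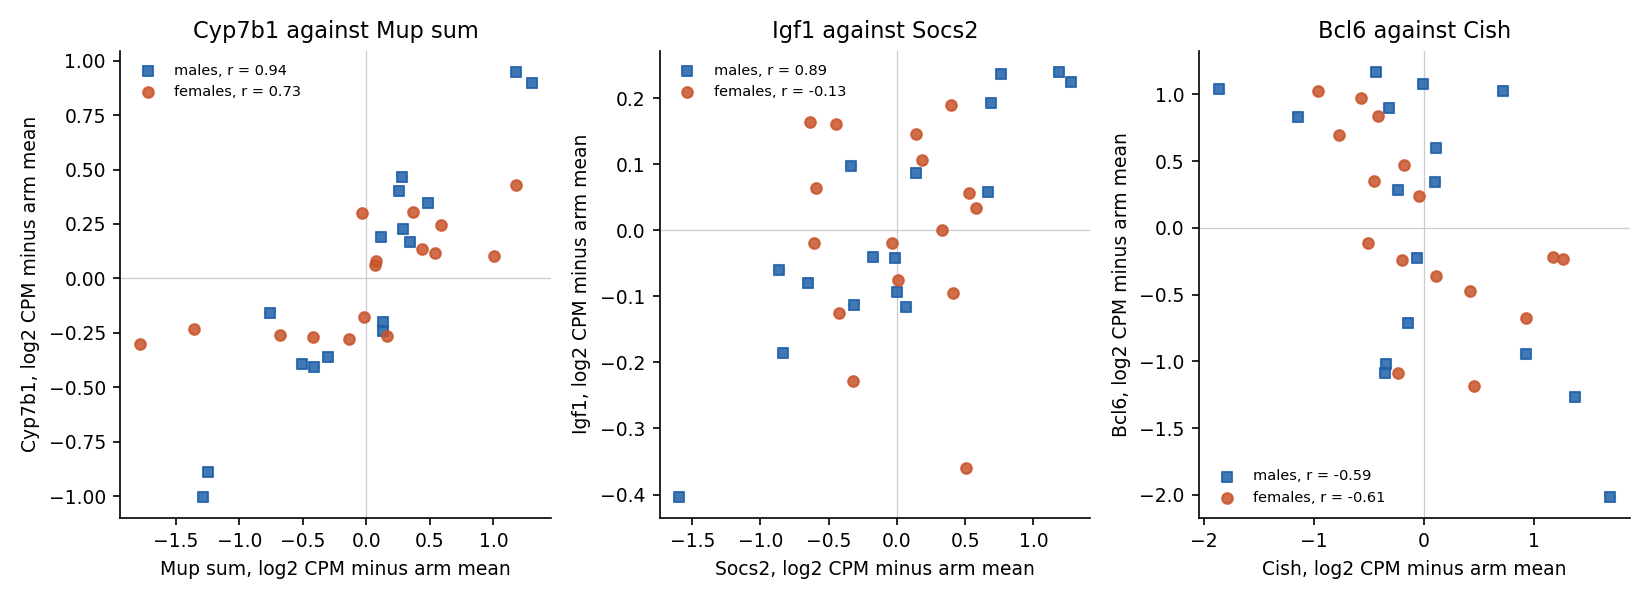
Residuals from arm means of log2(CPM + 0.1) for 3 pairs of members, 1 point per liver (squares, males; circles, females; 16 each). Cyp7b1 rises with the Mup sum in both sexes (r = 0.94 and 0.73). Igf1 and Socs2 have r = 0.89 in males and -0.13 in females (0.54 in females with arm means kept). Bcl6 runs opposite to Cish (-0.59 in males, -0.37 without the 2 farthest livers, and -0.61 in females).

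Other genes of the pathway were followed as lists, to be read against 4.25% of all genes higher and 2.51% lower at 100 mg/kg against Q175 vehicle. Of 22 further genes of growth hormone receptor signalling, 2 fell at 100 mg/kg against Q175 vehicle and none rose: Socs3, an inhibitor of JAK kinases (log2 -1.20 ± 0.32, adjusted p = 0.0222), and Socs4 (-0.28 ± 0.08, adjusted p = 0.0295). Of 12 tested genes of the IGF axis none was called (median log2 -0.28). Of 14 other male-biased liver genes, 2 fell and none rose, with Obp2a, a lipocalin, at -2.79 ± 0.70 and the hedgehog ligand Ihh at -1.13 ± 0.34. Of 24 other female-biased genes, 5 rose and 1 fell (median 0.41), among them Acot3, a peroxisomal thioesterase (1.85 ± 0.47), and Ntrk2, the BDNF receptor, which fell (-3.55 ± 0.87). Of 15 transcription factors 1 fell, Foxa3 (-0.74 ± 0.16, adjusted p = 0.0035), a hepatocyte pioneer factor, and of 18 clock genes 1 fell, Per1 (-0.81 ± 0.24). None of these lists had a call at 30 mg/kg against Q175 vehicle or in Q175 against WT vehicle livers. In the comparison of males with females, 14 of 14 male-biased genes were higher and 22 of 24 female-biased genes lower in males, where 16.6% of all genes were higher and 16.7% lower. Both lists were made of genes named as sex-biased, and were chosen with earlier results of these data known. Their sex direction was therefore largely set in advance, and these counts are not a test of it.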

How the data were processed

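Total RNA from frozen tissue was prepared with Qiagen miRNeasy and sequenced by standard Illumina protocols, per the labels. The submitters' processing notes name CASAVA 1.8.2. Aligner, genome build, annotation, counter and strand setting: none is given in the sources used here, so a gene and an overlapping or antisense partner cannot be told apart. The authors deposited a table of estimated counts per gene, in which 27.5% of liver values above 0 were not whole (tolerance 0.001), and a table of FPKM values, both for all 160 libraries. Gene symbols came from the deposited gene IDs matched to the reference table (42462 of 43432 matched).

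Here the deposited estimated counts of the 32 livers were rounded to whole numbers, filtered with filterByExpr over the 8 cells of arm and sex, and scaled by TMM, which left 15539 genes. edgeR's quasi-likelihood test (edgeR 4.0.16, R 4.3.3) was fitted on all 32 livers, with sex as a covariate for the arm comparisons and with the 8 cells for sex, within-sex and interaction comparisons. Benjamini-Hochberg adjustment ran over all genes tested, with a threshold of 0.05. FPKM, as deposited, served for levels between genes and tissues and for an alternative with limma 3.58.1 on log2(FPKM + 0.1). DESeq2 1.42.0, other scalings and filters, family sums and leaving out libraries were the other alternatives, and leaving out the 4 libraries named by lane and index was added after seeing the data. P-values measure the spread between these livers, 1 per mouse.

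Every member is described, and of each further list up to 2 genes with the smallest p among those called. The members and lists were chosen with earlier results of these data known. Tested on simulated counts, the comparison of 100 mg/kg with Q175 vehicle recovered 52.0% of genes changed by a log2 of 0.5 and 74.7% of those changed by 1 (15336 genes in that step). Within males it recovered 29.6% and 60.6%, and within females 22.4% and 62.6%. The changed genes were drawn at random from all genes in that step. Many members had wide spreads, and recovery of the members themselves was not measured. Promoter sequences are RefSeq's (GRCm38.p6). Shared 50-base words were counted in the GENCODE vM21 transcripts.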

Additional observations from a re-analysis of the deposited data

Results flagged for a closer look

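Within each arm and sex, 392 groups of 4 livers were searched for a sample far from the others, by the gap to the nearest liver over the range of the 4, set against Dixon's critical value. That value flags about 1 in 20 groups by chance when values are normally distributed. Here 37 groups (9.44%) were marked. CPM values are skewed and related rows repeat the same livers, so this share is not an excess over 1 in 20. Values are CPM, with the range of the other 3 livers where a few are given in full.

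In 100 mg/kg livers, male 4 had the lowest Mup3 (1250, others 3170 to 3280), Serpina1d (3030) and Serpina1 sum (17500) and the highest A1bg (0.979, others 0.0615 to 0.152). Female 4 had the highest A1bg (61.1, others 4.70 to 9.29) and Prlr (284), and female 2 the lowest Cyp7b1 (24.0).

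In 30 mg/kg livers, male 1 had the highest A1bg (5.3, others 0.0264 to 0.0560), Cux2 (8.19, others 0.223 to 0.953) and Prlr (195, others 66.4 to 79.0). Male 2 had the lowest Igfals (32). Male 3 had the highest Elovl3 (205), Mup7 (5460, others 35.3 to 914) and Mup8 (23.4), and male 4 the highest Hao2 (1.19). Female 1, which holds heart transcripts, had the highest Clec2h (1.55, others 0.112 to 0.250). Female 3 had the highest Mup13 (8.03) and Mup8 (18.8), and female 4 was listed at 0 for Mup6, against up to 0.0750 in the others.

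In Q175 vehicle livers, male 4 had the highest Cish (13.6, others 1.82 to 3.51), Selenbp2 (548, others 60.5 to 123), Mup7 (15400), Mup15 (2040, others 1.59 to 240) and Mup17 (2400). Male 1, which holds heart transcripts, had the lowest Igfals (35.7) and Slco1a1 (102, others 304 to 322) and the highest Cux2 (0.877). Female 1 had the highest Cish (22, others 6.06 to 7.67), and female 2 the highest Slco1a4 (304) and Mup6 (0.0254, others 0). Female 4 had the highest A1bg (506, others 29.1 to 81.7) and Mup21 (12.3, others 2.69 to 3.32) and the lowest Igfals (56.7).

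In WT vehicle livers, male 2 had the lowest Hao2 (0.0215, others 0.421 to 0.479) and Mup10 (2550, others 6920 to 7550). Female 1 had the lowest Igfals (69.9, others 97.5 to 99.4), and female 2 the highest Serpina1 sum (28000).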

How the results depend on the processing

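The 8 members called at 100 mg/kg against Q175 vehicle livers included 5 that stayed called under every alternative and every library left out: Clec2h, Serpina1e, Igf1, Susd4 and Hao2. So did 7 of the 12 called at 100 mg/kg against WT livers, 37 of the 42 called between sexes, and none called at 100 against 30 mg/kg. DESeq2 called 10, 13 and 43 members in the first 3 of these. How many of all genes each alternative called is not given, here or below. These counts therefore do not tell a change in the members from a change in all genes. The count between the doses (2) was 6 by DESeq2, 1 with a replicate block, with cells of arm and sex averaged or with the arms of the contrast only, and 0 with no filter on low counts, without the libraries with transcripts of another tissue, or without those named by lane and index. Within males it (2) was 1 with TMM without the Mup and Serpina1 rows, with the replicate block or with each family as 1 row, and 0 with no filter or without the lane and index libraries. Within females it (0) was 3 by DESeq2. For 100 mg/kg against Q175 vehicle, the count within males (1) was 5 by DESeq2 and 0 with no filter, and within females (6) it was 3 with no filter. DESeq2 gave 1 for 30 mg/kg against WT (0) and 1 for 30 mg/kg against Q175 vehicle within females (0), and for the second so did leaving out the libraries with transcripts of another tissue. The count between sexes (42) was 22 with each family as 1 row, which leaves fewer rows. Otherwise the cause was not tested.

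The Serpina1 sum at 100 mg/kg against Q175 vehicle (-0.31, adjusted p = 0.0395) lost its call at -0.30 with RLE normalization (adjusted p = 0.0563), -0.30 with TMM without the families (0.0542), -0.29 with no filter (0.123), -0.31 with the replicate block (0.0641), -0.29 with the arms of the contrast only (0.0514), -0.35 without the other-tissue libraries (0.0534) and -0.31 without the lane and index libraries (0.0576).

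Leaving out 1 library at a time gave 6 to 10 members at 100 mg/kg against Q175 vehicle, 1 (without 100 mg/kg female 1) to 8 (without WT female 2) within females and 0 to 1 within males. It gave 0 to 4 between the doses (0 to 1 within females, 0 to 2 within males), 9 to 12 at 100 mg/kg against WT, 0 to 1 at 30 mg/kg against WT, 0 to 1 at 30 mg/kg against Q175 vehicle within females (1 without 30 mg/kg female 1), 40 to 44 between sexes, and 0 in Q175 against WT and in the interaction. The Serpina1 sum at 100 mg/kg ran from -0.33 to -0.25, and the Mup sum from -0.58 to -0.10, with -0.10 without Q175 vehicle male 4. A sign change counts as a reversal where a call is involved or both values exceed the SE, and 1 occurred: A1bg at 100 against 30 mg/kg within males ran from -3.55 to 2.84 with 1 library left out, and was positive without 30 mg/kg male 1 (adjusted p = 0.653).

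Replicate numbers are shared by the labels of all arms, but livers of the same number did not deviate together (48 pairs, median r = 0.03, against -0.01 for 144 other pairs), so they do not pair animals. With the replicate block, 7 members were called at 100 mg/kg against Q175 vehicle, 9 against WT, 41 between sexes and 0 in Q175 against WT. Shallow rows such as Mup4, Mup5 and Mup6 are limited by depth, and the intervals of uncalled members are wide.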

Other observations

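WT female 1 and Q175 vehicle female 4 had the lowest Mup sums of the 32 livers, 1638 and 1650 CPM, and the highest Serpina1e among females, 256 and 194 CPM, against 7.62 to 92.2 CPM in the other 14. They also had the highest Mup21 among females, 9.86 and 12.3 CPM, with up to 4.50 CPM in the others. Mup20, a male-biased row, was at 319 CPM in WT female 1, where it made up 19.5% of the Mup sum. These livers were picked out after their values were seen, and no test was made.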
